A study of Mus musculus with 6 samples.

Results

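Sall1, Maf, Mef2a, Mef2c, Spi1, Irf8, Runx1 and Smad3 encode transcription factors that are used to describe the identity of microglia (MG), the resident macrophages of the brain. They were taken by symbol, and all 8 were found among the 32285 genes counted in each of the 4 single-cell RNA libraries of the series. The question asked here was at what level each gene was present in MG, in macrophages of the brain borders and in other immune cells, and whether its level in MG differed between cell states and after treatment with AZD1480, a Janus kinase inhibitor.

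Live CD45+ cells were sorted from the ventral midbrain of male Line 61 mice, which carry human α-synuclein under the Thy1 promoter, in use for driving transgenes mainly in neurons. The mice were injected into both striata at 12 to 15 weeks of age and collected 6 weeks later. The groups were PBS, α-synuclein Monomer, and α-synuclein pre-formed fibrils (PFF) followed by vehicle (PFF + VH, 0.1% DMSO) or by AZD1480 (PFF + AZD1480, 25 mg/kg daily by gavage, begun 2 weeks after injection and given for 4 weeks). Midbrains were pooled, 3 to 5 per sample, and each group was captured as 1 library, so every difference between groups is also a difference between libraries and treatment and library cannot be told apart. All groups carried the transgene, and mice without it were not analysed here.

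The 4 libraries held between 13813 and 34828 cell barcodes and between 99658216 and 116440449 unique molecular identifiers (UMIs, each standing for 1 captured RNA molecule). PFF + VH stood apart, with a median of 2306 UMIs per retained cell against 6616 to 7028 in the other 3. Pairs of libraries shared 45 to 151 barcodes, at most 1.03% of the smaller library. In the PFF libraries, antibody hashtags marked separate samples, 4 in PFF + VH and 5 in PFF + AZD1480, and 53.3% and 80.1% of the cells could be given to a single hashtag. The cells given to 1 hashtag in PFF + VH were the deeper ones, with a median of 2875 UMIs against 1315 in cells without a hashtag. Hashtags were taken as the replicates. That each stood for a separate pool of mice was assumed. Between treatments the p-values measure the spread between hashtags of the same library. Between kinds or states of cells they measure the spread of the difference within hashtags, over both PFF libraries. The test also shares its estimate of spread between genes, so the size of a p-value rests in part on other genes.

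The identity of macrophages is set in layers. Spi1 encodes PU.1, an ETS-family factor needed for the whole myeloid lineage, Irf8 encodes an interferon regulatory factor that binds DNA together with PU.1, and Runx1 encodes a Runt-domain factor of blood cell development that acts upstream of Spi1. On that base, tissue signals add further factors: Smad3 carries the signal of the transforming growth factor β (TGF-β) receptor into the nucleus, Sall1 encodes a zinc-finger factor that depends on TGF-β in MG and keeps them from taking on other macrophage states, Maf encodes a basic leucine zipper factor of resident macrophages, and Mef2a and Mef2c encode MADS-box factors whose sites are frequent at MG enhancers.

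Promoter sequences are shown for Irf8 and Mef2c, each with a STAT motif in a window, and for Mef2a, which held GAGGAA at 2 places. They were picked because AZD1480 acts on the pathway that ends in STAT factors and PU.1 is itself a member. The mouse RefSeq table (GRCm38.p6) gave promoters for 6 of the 8 members, Sall1, Mef2a, Mef2c, Irf8, Runx1 and Smad3, as 12 windows of 300 bases (250 before and 50 after a start site). TTCNNNGAA, the palindromic STAT motif, was searched on both strands and was present in 2 of the 12 windows, which belong to Irf8 and Mef2c, and in 8.3% of all 32851 promoter windows. GAGGAA, the core of the PU.1 motif, was present in 4 of the 12 windows, which belong to Mef2a, Mef2c and Runx1, and in 28.3% of all windows. The matches of the 2 motifs did not overlap, and a match is a description of letters, not evidence of binding. The 250 bases before the start of Irf8 (chr8:120736108-120736357, plus strand), Mef2c (chr13:83503784-83504033, plus strand) and Mef2a (chr7:67372859-67373108, minus strand) are written 5′ to 3′ with the motifs in capitals. Irf8 had 2 windows, Mef2c 3 and Mef2a 1, and for each gene the window with the most of the 2 motifs was chosen. The other windows of Irf8 and Mef2c held no STAT motif. In those shown, the STAT motif began 171 and 153 bases before the start of Irf8 and 157 bases before that of Mef2c. In Mef2c GAGGAA followed at 122 bases, and in Mef2a GAGGAA began 114 and 103 bases before the start.
Irf8: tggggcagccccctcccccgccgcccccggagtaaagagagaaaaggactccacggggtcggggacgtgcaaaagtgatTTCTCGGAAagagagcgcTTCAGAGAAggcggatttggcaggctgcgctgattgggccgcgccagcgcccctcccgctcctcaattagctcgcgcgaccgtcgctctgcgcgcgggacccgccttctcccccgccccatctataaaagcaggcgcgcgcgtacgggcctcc
Mef2c: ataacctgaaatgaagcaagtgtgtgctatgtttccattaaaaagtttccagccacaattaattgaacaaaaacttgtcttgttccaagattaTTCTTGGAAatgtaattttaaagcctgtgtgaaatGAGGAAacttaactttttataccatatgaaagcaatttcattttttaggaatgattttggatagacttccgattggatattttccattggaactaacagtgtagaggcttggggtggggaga
Mef2a: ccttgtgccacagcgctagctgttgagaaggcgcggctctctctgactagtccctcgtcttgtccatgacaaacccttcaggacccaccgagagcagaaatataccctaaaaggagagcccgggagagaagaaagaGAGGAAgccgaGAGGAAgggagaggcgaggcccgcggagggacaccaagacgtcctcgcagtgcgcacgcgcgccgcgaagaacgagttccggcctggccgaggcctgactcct

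On GRCm38 the members lie at chr8:89027235-89044162 (Sall1, minus strand), chr8:115682942-115707794 (Maf, minus), chr7:67231163-67372858 (Mef2a, minus), chr13:83504034-83667080 (Mef2c, plus), chr2:91082390-91115756 (Spi1, plus), chr8:120736358-120756694 (Irf8, plus), chr16:92601466-92826149 (Runx1, minus) and chr9:63646767-63757994 (Smad3, minus). All are protein-coding genes, and their spans run from 16.9 kb for Sall1 to 225 kb for Runx1. Mef2a overlaps Gm44667 and Gm44668 on its own strand and Irf8 overlaps Gm20388, so reads in the shared stretches could have been split or dropped when genes were counted. The assay counts molecules by their 3′ ends, and levels are compared between cells for 1 gene and not between genes.

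Cells were sorted into classes by UMIs of marker genes, none of which is a member. MG needed at least 3 UMIs from at least 2 genes of a list that includes P2ry12, Tmem119, Sparc, Fcrls and P2ry13, and 5 times as many as any other list gave, and this held for 91.4 to 93.2% of the retained cells (PBS 13431, Monomer 14004, PFF + VH 31704, PFF + AZD1480 11903). Border macrophage-like cells (BAM, led by Mrc1, Pf4, Cd163 and 5 more genes) numbered 248, 182, 266 and 281 in the same order, and T and NK cell-like cells (T/NK) 210, 164, 176 and 90. Neutrophil-like, B cell-like, monocyte-like and dendritic cell-like cells numbered 10 to 106 per library and class. Cells that met no rule, 584 (PBS), 607 (Monomer), 2101 (PFF + VH) and 624 (PFF + AZD1480), were left without a class. The classes are ranges of a score rather than separated types: a stricter rule removed 2.12 to 6.45% of MG, 34.7 to 57.5% of BAM and 11.4 to 43.8% of T/NK. The median BAM carried 7 to 10 UMIs of the MG list beside 19 to 43.5 of its own, whereas the median MG carried 30 to 99 UMIs of the MG list and 0 of the BAM list.

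Of the 8 genes, Sall1, Mef2a and Smad3 were higher in MG than in each of the 6 other classes in every library. This holds for all cells of a class summed, and Smad3 in neutrophil-like cells of PFF + VH came near MG. In cells without a class, which are not among the 6, Smad3 stood at 118% of MG in PBS and 90.8 to 97.8% in the other libraries. Runx1 in them stood at 105 to 131% of MG, and Sall1 at 33.1 to 63.3%. Maf was highest in BAM. Spi1 was highest in neutrophil-like and monocyte-like cells, and for Mef2c, Irf8 and Runx1 the range in MG overlapped that of at least 1 other class. Levels are given as CPM (UMIs of the gene divided by the UMIs of all genes, times 1000000) after the cells of a class were summed in a library, with 1 value per library and class, and the order of classes is a description.

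**Figure D1:**
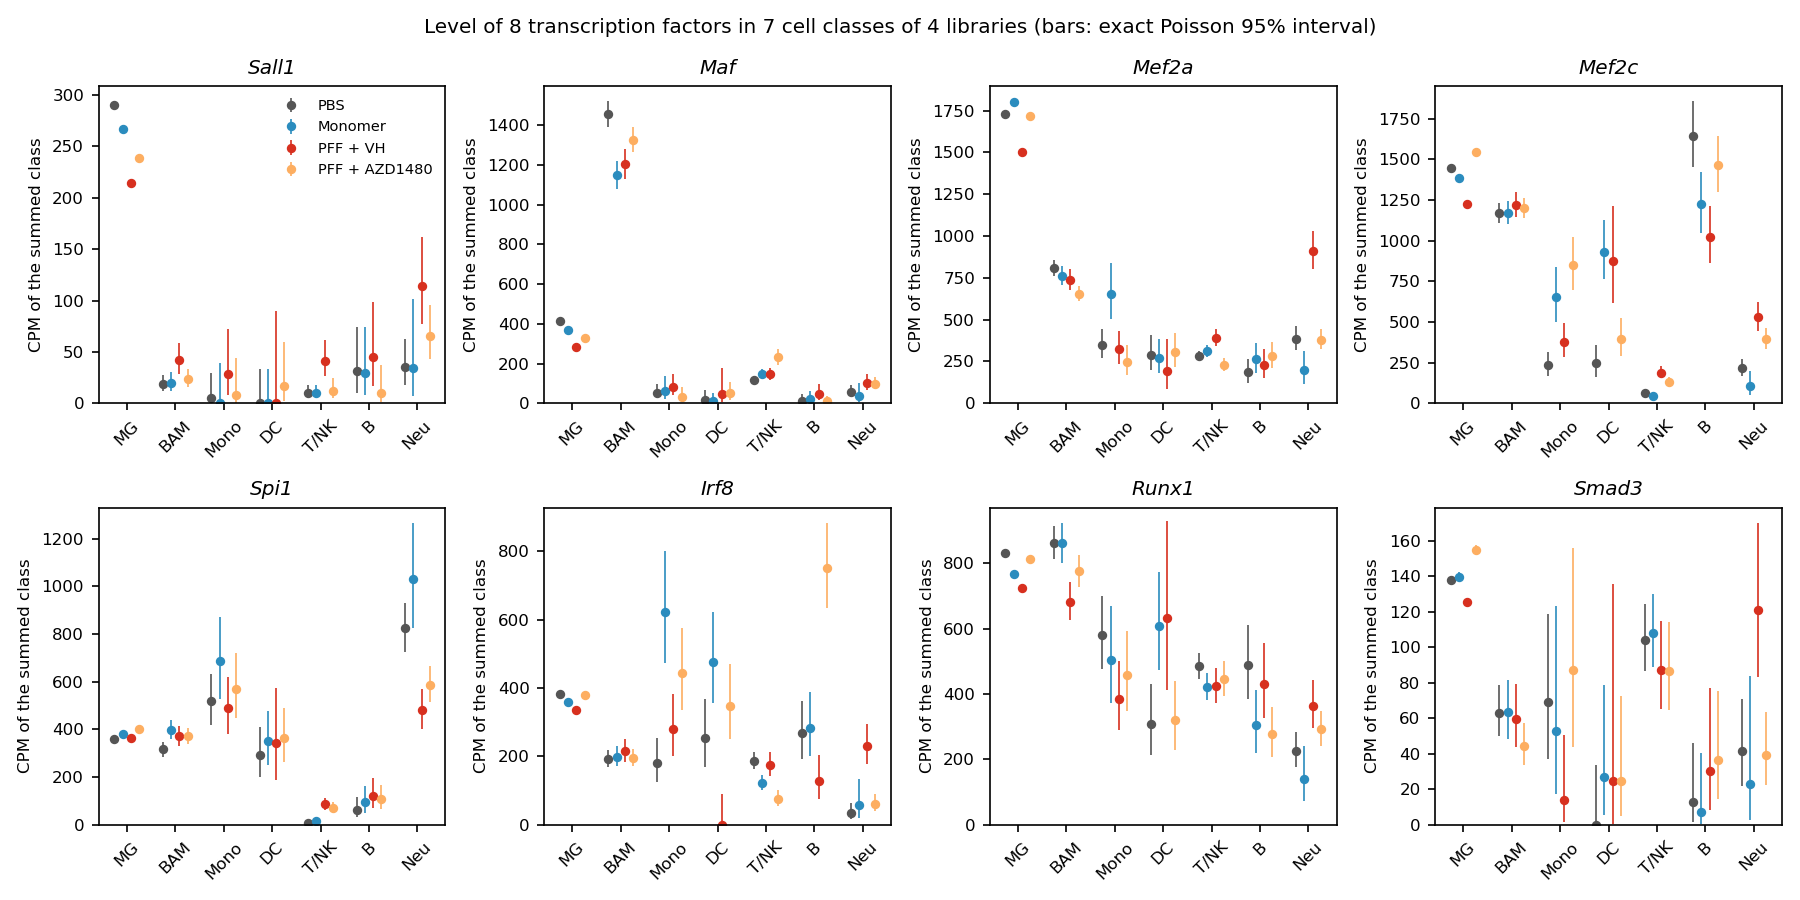
CPM of each of the 8 transcription factors (y axis, linear, from 0) in 7 cell classes (x axis) of the 4 libraries (colours), with exact Poisson 95% intervals that cover counting error only. Sall1 in MG lies between 214 and 291 CPM with all other classes at or under 114, while Maf in BAM lies between 1148 and 1455 CPM, above MG in every library.

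Sall1 was the member most restricted to MG. Its level in the MG of the libraries PBS, Monomer, PFF + VH and PFF + AZD1480, an order kept for all lists of 4 library values that follow, was 291, 267, 214 and 239 CPM. In BAM it was at 18.5, 19.3, 41.9 and 23.4 CPM, and in T/NK at 10.0, 9.82, 41.1 and 11.9 CPM. The 4 MG values thus lay above all values of the other classes, of which neutrophil-like cells had the highest, 34.7 to 114 CPM. Relative to MG, Sall1 in BAM stood at 6.36, 7.24, 19.6 and 9.77%, and the summed MG marker list in BAM at 17.6, 16.6, 25.8 and 20.1%. In T/NK, which should lack both, the MG list stood at 3.72, 4.62, 15.2 and 9.23% of its level in MG and Sall1 at 3.44, 3.68, 19.2 and 4.97%. After each cell was thinned to 1000 UMIs, 24.4, 22.3, 19.2 and 20.3% of MG held a Sall1 UMI, against 0.862 to 3.88% of BAM and 0 to 4.17% of T/NK (0 of 208 T/NK cells in PBS allows a share of up to 1.76% by the exact binomial interval). Without thinning the shares in MG were 75.5, 70.5, 41.6 and 66.5%, at median depths of 7250, 6832, 2403 and 6827 UMIs. In BAM they were 6.45 to 10.9% and in T/NK 5.71 to 11.9%. In thinned cells the share of BAM with a Sall1 UMI was above that of T/NK in PBS, Monomer and PFF + AZD1480. It was below that of T/NK in PFF + VH, and the 95% intervals overlapped in each library. Among cells with a single hashtag in PFF + AZD1480, BAM held 17 Sall1 UMIs of 667199 (25.5 CPM) and T/NK 0 of 298017, which allows up to 10.1 CPM by a floor of 3 counts. The part of background RNA in the Sall1 of BAM was not tested.

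Maf showed the opposite order. Its level was 1455, 1148, 1204 and 1328 CPM in BAM, 413, 369, 284 and 327 CPM in MG, and 116, 149, 145 and 231 CPM in T/NK, and the ranges of the 3 classes did not overlap. In thinned cells a Maf UMI was held by 59.1 to 74.6% of BAM, 24.2 to 31.6% of MG and 9.13 to 14.4% of T/NK. Maf is also known as a factor of some T helper cells. B cell-like and dendritic cell-like cells had the lowest medians of the 7 classes, with 10.4 to 45.2 and 8.96 to 49.5 CPM.

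Both Mef2 genes were high in MG but differed in where else they were found. Mef2a was at 1730, 1802, 1504 and 1720 CPM in MG and at 806, 762, 738 and 654 CPM in BAM, which was the next class by median. Mef2c was at 1450, 1385, 1227 and 1545 CPM in MG, 1169, 1172, 1221 and 1200 CPM in BAM, and 1647, 1223, 1025 and 1465 CPM in B cell-like cells, in which it is a known lineage factor. The Mef2c range of B cell-like cells covered those of MG and BAM, and the lowest MG value lay just above the highest BAM value. T/NK had the least Mef2c, at 64.2, 47.1, 188 and 131 CPM. Of the T/NK, 39 of 176 in PFF + VH and 40 of 90 in PFF + AZD1480 carried more than 1 hashtag. With single-hashtag cells alone, the T/NK of PFF + AZD1480 had 60.4 CPM of Mef2c, and the 6 members other than Mef2c and Sall1 in T/NK and all 8 in BAM moved by less than 1.5 times in both PFF libraries. Smaller classes moved further. In neutrophil-like cells of PFF + AZD1480, Mef2c went from 395 to 122 CPM, Mef2a from 380 to 223, Runx1 from 292 to 192, Maf from 97.5 to 41.9 and Irf8 from 60.9 to 31.4. Sall1 in those of PFF + VH went from 114 to 70.6 CPM, and Irf8 in monocyte-like cells of PFF + AZD1480 from 444 to 187.

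Of the general myeloid factors, Spi1 and Runx1 were at similar levels in MG and BAM, and Irf8 was higher in MG. Spi1 was at 359, 379, 364 and 400 CPM in MG and at 316, 398, 371 and 372 CPM in BAM, and these ranges overlapped. Monocyte-like cells (491 to 685 CPM) and neutrophil-like cells (481 to 1030 CPM) were above MG, and T/NK had 9.17, 17.7, 85.6 and 71.4 CPM. Runx1 likewise was at 833, 767, 725 and 812 CPM in MG and at 863, 861, 683 and 776 CPM in BAM, with T/NK at 421 to 485 CPM. Irf8 was at 383, 359, 337 and 379 CPM in MG and at 193, 199, 215 and 195 CPM in BAM. For Irf8 monocyte-like cells spanned 181 to 621 CPM and B cell-like cells 128 to 750 CPM, in classes of 13 to 45 cells, and neither could be ordered against MG.

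Summed over all cells of a class in a library, Smad3 was higher in MG than in any other class. It was at 138, 140, 125 and 155 CPM in MG, 104, 108, 87.3 and 86.7 CPM in T/NK and 63.2, 63.3, 59.7 and 44.4 CPM in BAM, and the ranges of these 3 classes did not overlap. In the 106 neutrophil-like cells of PFF + VH Smad3 reached 121 CPM, 96.6% of its level in MG. In the same cells the MG marker list stood at 46.3% and Sall1 at 53.2% of their levels in MG. In the 3 hashtags of PFF + VH with at least 10 such cells, Smad3 had 62.3, 179 and 196 CPM. The MG of that library had 110 to 132 CPM per hashtag, so neutrophil-like cells could not be ordered against MG there.

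Several members were commonly found in the same cell. Of the 8 genes, a thinned MG held UMIs of 3.26, 3.16, 2.95 and 3.13 on average in the 4 libraries, a thinned BAM of 2.59 to 2.70 and a thinned T/NK of 0.900 to 1.26. The share of MG with none of the 8 was 1.44 to 2.63%.

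The comparison of MG with BAM asked which members separate the 2 kinds of brain macrophage. Counts were summed per hashtag and class, 9 hashtags gave both classes, and edgeR's quasi-likelihood test was fitted on all 10931 genes that passed the filter on low counts, with the hashtag as a block and p-values adjusted over all of them. Mef2a and Irf8 were higher in MG and Maf was higher in BAM. Mef2c was called higher in MG at a margin that other settings did not keep, and Spi1 and Runx1 were not called. Sall1 and Smad3 passed the filter only through MG, with 34 and 62 UMIs in all BAM hashtags together, and are given by their values without a fold change. Of the 6 members that passed the filter in both classes, 4 were called, 3 of them higher and 1 lower. Of all genes 26.5% were called, and of the 1362 that passed in both classes 51.8% were called, 25.5% as higher and 26.4% as lower. The share of members called was near that background. The values of 3 of the 6 members did not overlap between the classes, against 25.6% of these genes.

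**Figure D2:**
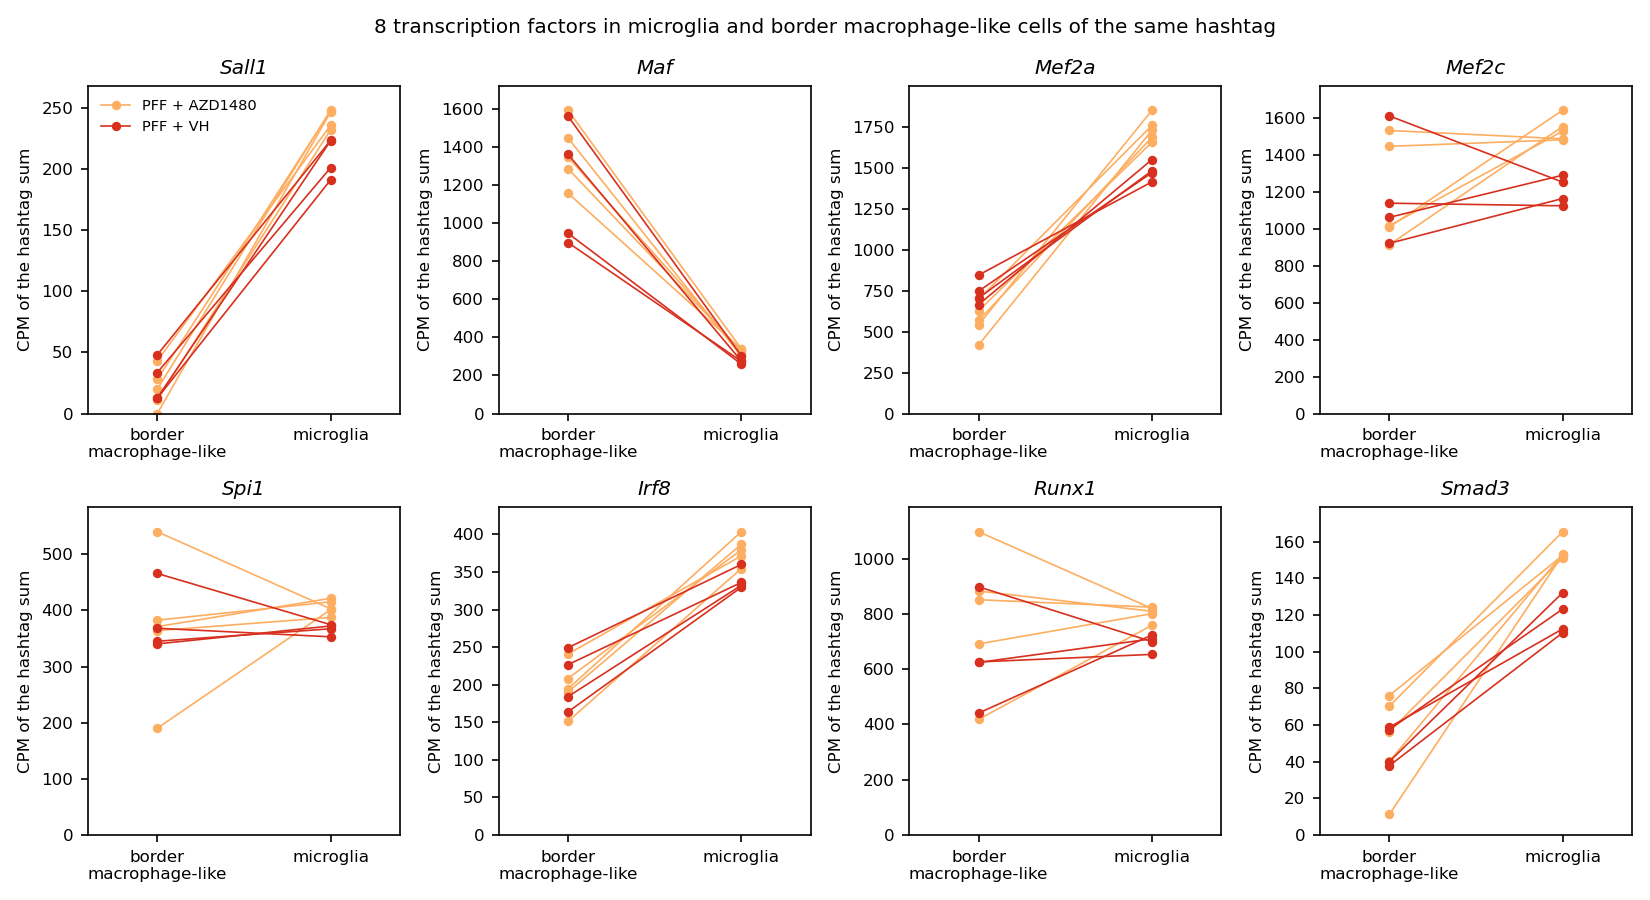
CPM of each transcription factor (y axis, linear, from 0) in border macrophage-like cells and in microglia, with 1 line per hashtag and the colour giving the library. All 9 lines rise for Sall1, Mef2a, Irf8 and Smad3 and all 9 fall for Maf, whereas lines cross for Mef2c, Spi1 and Runx1.

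Sall1 had a lowest value of 191, a median of 232 and a highest value of 248 CPM in MG, and 0, 20.1 and 48.0 CPM in BAM. Every hashtag was higher in MG, and BAM held 0 to 8 Sall1 UMIs per hashtag. As Sall1 passed the filter only through MG, these values are a description. The BAM value of 0 came from a hashtag with 10 BAM, the smallest number that was used. For Maf the values were 260, 303 and 340 CPM in MG and 897, 1345 and 1591 CPM in BAM. The log2 fold change was -1.98 ± 0.12 (SE, n = 9 hashtags, edgeR adjusted p = 5.3e-41), with MG lower in 9 of 9 hashtags.

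Mef2a had 1414, 1656 and 1850 CPM in MG against 419, 665 and 845 CPM in BAM, and the log2 fold change was 1.37 ± 0.12 (edgeR adjusted p = 3.4e-22). Smad3 had 110, 151 and 165 CPM in MG against 11.2, 56.3 and 76.1 CPM in BAM, from 2 to 14 UMIs per BAM hashtag. For Irf8 the values were 330, 360 and 404 CPM in MG against 151, 194 and 249 CPM in BAM, and the log2 fold change was 0.89 ± 0.14 (edgeR adjusted p = 8.8e-09). Mef2a and Irf8 were higher in MG in 9 of 9 hashtags with no overlap. The Smad3 values lay the same way, but Smad3 passed the filter only through MG and its values are a description.

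Mef2c had 1123, 1481 and 1640 CPM in MG against 913, 1061 and 1610 CPM in BAM, and MG was higher in 6 of 9 hashtags. Its log2 fold change was 0.30 ± 0.12 (edgeR adjusted p = 0.0457). The call was lost with DESeq2 (adjusted p = 0.202), with the stricter class rule (edgeR adjusted p = 0.395) and with the hashtags of PFF + VH alone (edgeR adjusted p = 0.578). Leaving out 1 hashtag gave edgeR adjusted p between 0.0155 and 0.155, and the call was lost without hashtag 1, 3 or 4 of PFF + AZD1480 and without hashtag 1 or 3 of PFF + VH. Spi1 (log2 fold change 0.07 ± 0.13, edgeR adjusted p = 0.775) and Runx1 (0.12 ± 0.12, edgeR adjusted p = 0.557) had BAM values both above and below those of MG.

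Within the single libraries Maf, Mef2a and Irf8 kept their direction and passed the edgeR threshold. Maf differed by a log2 fold change of -1.96 within PFF + VH and within PFF + AZD1480, Mef2a by 1.13 and 1.63, and Irf8 by 0.81 and 1.01. Of the BAM of PFF + AZD1480, 101 of 281 carried more than 1 hashtag, as did 39 of 266 in PFF + VH, and these were left out. The part of MG RNA carried into BAM was not tested.

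The partners and pathway genes of the members were compared in the same fit. They are counted where they passed the filter in both classes, which 1 of 13 tested paralogs and partners did, too few to count. Of the genes of the TGF-β pathway 6 did so. The receptor genes Tgfbr1 (log2 fold change 2.49) and Tgfbr2 (0.40), the repressor genes Ski (1.33) and Skil (1.00) and the ligand gene Tgfb1 (0.77) were higher. Nrros, whose product anchors latent TGF-β on myeloid cells, was lower in MG (-0.93). The median log2 fold change of the 6 was 0.89 and that of all genes that passed in both classes -0.04. Of the further microglial genes outside the marker list, 7 passed in both classes and all 7 were higher in MG. They ran from Tyrobp (0.30) to Gpr34 (2.01), with a median of 1.70. Of the lineage factors of other cells, Nr4a1 (-0.76) was lower in MG and Cebpb was not called, and the others did not pass in both classes.

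In the comparison of MG with T/NK, which 7 hashtags allowed, Mef2a and Runx1 were the members that passed the filter on low counts in T/NK as well as in MG. Both were higher in MG without overlap. Of all 11821 genes 40.3% were called. Of the 860 genes that passed in both classes 71.2% were called, 23.6% as higher in MG, and the values of 62.9% did not overlap. Mef2a had a lowest value of 1414, a median of 1549 and a highest value of 1758 CPM in MG against 105, 294 and 559 CPM in T/NK, a log2 fold change of 2.77 ± 0.18 (SE, n = 7 hashtags, edgeR adjusted p = 7.7e-54). Runx1, which T cells also use, had 654, 724 and 825 CPM in MG against 360, 405 and 525 CPM in T/NK, a log2 fold change of 1.09 ± 0.16 (edgeR adjusted p = 2.9e-10).

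The other 6 members passed through MG only, and their values are a description. Mef2c had 1123, 1289 and 1640 CPM in MG against 52.8, 103 and 188 CPM in T/NK. Sall1 had 191, 224 and 248 CPM against 0, 18.0 and 44.1 CPM, and T/NK of all hashtags of PFF + AZD1480 were at 0. Spi1 had 353, 375 and 415 CPM against 34.9, 58.2 and 103 CPM. These 3 genes, and Irf8 with 330, 355 and 404 CPM against 43.6, 135 and 228 CPM, had no overlap. Maf had 260, 303 and 340 CPM in MG against 80.8, 122 and 299 CPM in T/NK, and MG was higher in 7 of 7 hashtags. Smad3 had 110, 132 and 165 CPM in MG against 53.9, 88.2 and 131 CPM in T/NK, and was higher in MG in 6 of 7 hashtags. Of the TGF-β pathway genes 4 passed the filter in both classes and all 4 were higher in MG, Tgfbr1 (log2 fold change 3.25), Smad7 (1.68), Ski (1.41) and Tgfbr2 (0.95). The same held for 4 of the further microglial genes, with Csf1r (3.69) and Tyrobp (1.48) at the ends and Trem2 and Gpr34 between them. None of the paralogs, partners and lineage factors of other cells passed in both classes.

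The level of the members in MG was then followed across the 4 groups. PFF + VH had the lowest MG value of the 4 libraries for 7 members, and for Spi1 the lowest was PBS (359 CPM). With 1 library per group, and with the PFF + VH library the shallowest, no test of PBS or Monomer against PFF was possible. Treatment after PFF was tested between hashtags, 5 of PFF + AZD1480 against 4 of PFF + VH.

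In MG, 6 of 8 members were called higher in PFF + AZD1480 than in PFF + VH, where 26.2% of 13686 genes were called and 11.9% were called higher. Spi1 and Irf8 had higher means as well but were not called. The differences of the called members were small, between 0.15 and 0.32 on the log2 scale. For 6 members the hashtags of the groups did not overlap, against 23.4% of all genes. The 6 with no overlap included Spi1, which was not called, and left out Maf, which was called.

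**Figure D3:**
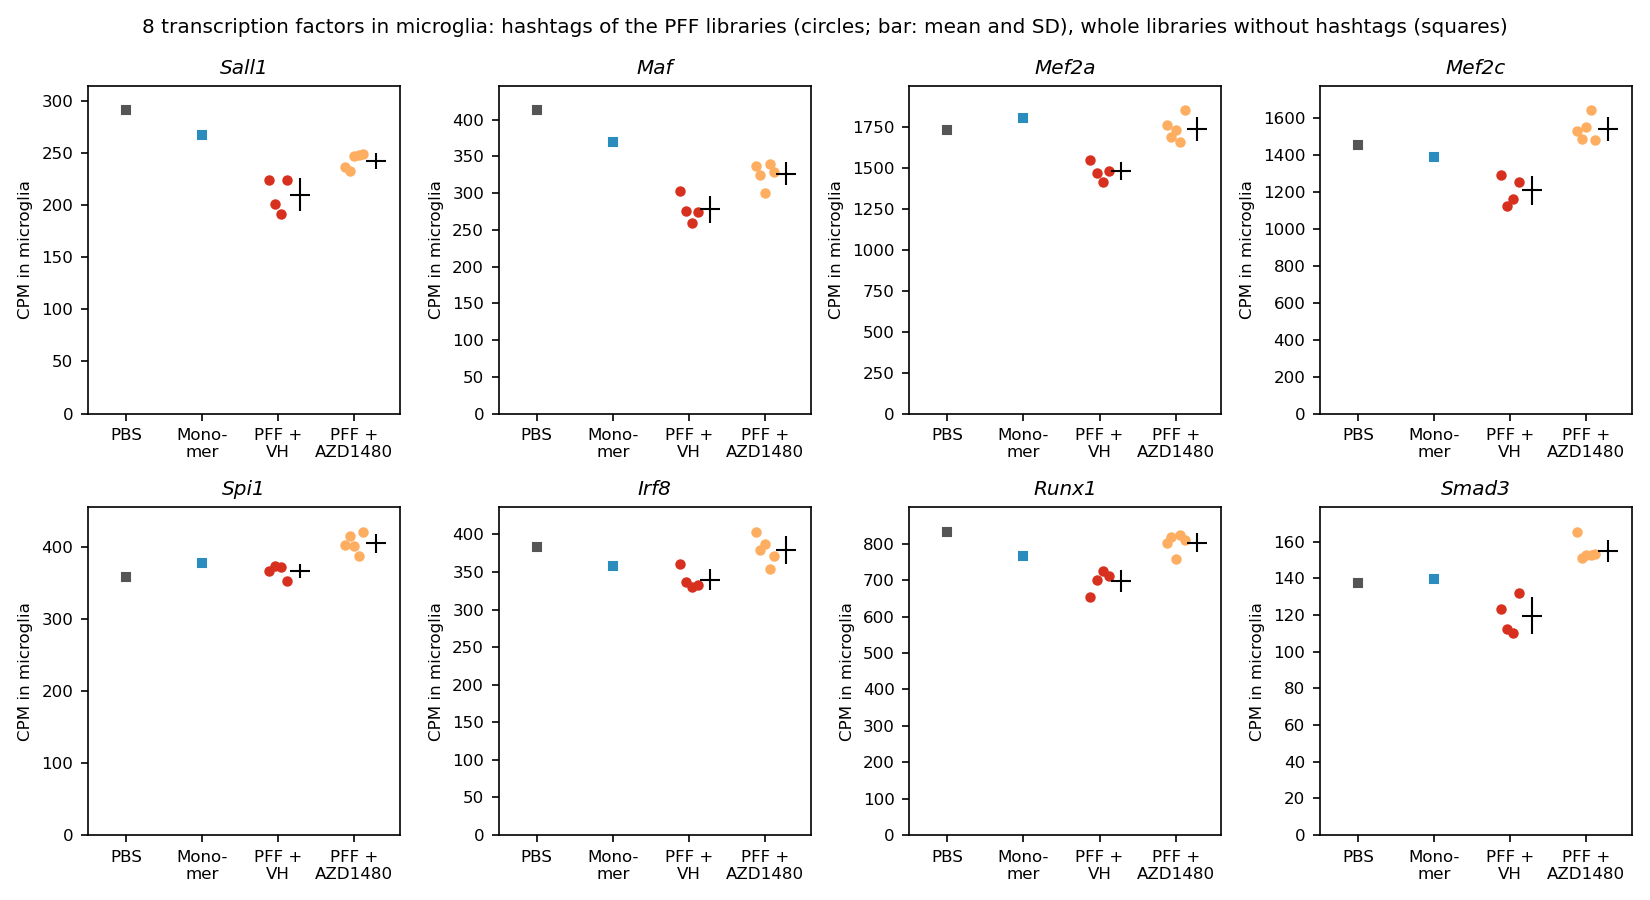
CPM of each transcription factor in microglia (y axis, linear, from 0) for the whole PBS and Monomer libraries (squares) and for each hashtag of PFF + VH and of PFF + AZD1480 as circles, with a cross at the mean and a bar for the SD. For Smad3 all PFF + AZD1480 hashtags lie at or above 151 CPM and all PFF + VH hashtags at or below 132 CPM.

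Smad3 was at 123, 112, 110 and 132 CPM in the 4 hashtags of PFF + VH and at 165, 151, 153, 153 and 153 CPM in the 5 of PFF + AZD1480. The means were 120 ± 10.1 (SD, n = 4) and 155 ± 5.87 CPM (SD, n = 5), and the log2 fold change was 0.32 ± 0.05 (SE, edgeR adjusted p = 9.3e-04). Mef2c was at 1289, 1123, 1163 and 1252 CPM in PFF + VH and at 1527, 1486, 1552, 1640 and 1481 CPM in PFF + AZD1480. All treated hashtags were above all vehicle hashtags for both genes, and the log2 fold change of Mef2c was 0.30 ± 0.05 (edgeR adjusted p = 0.0015).

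Mef2a was at 1549, 1470, 1414 and 1481 CPM in PFF + VH and at 1758, 1686, 1729, 1656 and 1850 CPM in PFF + AZD1480, again without overlap. Its log2 fold change was 0.18 ± 0.05 (edgeR adjusted p = 0.016). Smad3, Mef2c and Mef2a passed the threshold in each of the 21 alternatives computed.

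Sall1 was at 223, 201, 191 and 224 CPM in PFF + VH and at 236, 232, 247, 248 and 248 CPM in PFF + AZD1480, a log2 fold change of 0.16 ± 0.05 (edgeR adjusted p = 0.027). Maf was at 303, 276, 260 and 274 CPM in PFF + VH and at 337, 325, 300, 340 and 329 CPM in PFF + AZD1480, a log2 fold change of 0.18 ± 0.05 (edgeR adjusted p = 0.017), and hashtag 3 of PFF + AZD1480 lay below hashtag 1 of PFF + VH. Runx1 was at 654, 700, 724 and 710 CPM in PFF + VH and at 801, 820, 759, 825 and 810 CPM in PFF + AZD1480, a log2 fold change of 0.15 ± 0.05 (edgeR adjusted p = 0.046). These 3 calls were not stable. Sall1 lost its call in 8 alternatives. In 4 of them 1 hashtag was left out (hashtag 3 or 4 of PFF + AZD1480 or hashtag 2 or 3 of PFF + VH, edgeR adjusted p = 0.0512 to 0.0793), and over all 8 the edgeR adjusted p reached 0.238. Maf lost its call in 3, of which 1 left out a hashtag (hashtag 3 of PFF + VH, edgeR adjusted p = 0.0544), and Runx1 in 13, so that for Runx1 only the fits without hashtag 3 of either library kept the call when 1 hashtag was left out.

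Spi1 was at 367, 375, 372 and 353 CPM in PFF + VH and at 403, 415, 402, 388 and 422 CPM in PFF + AZD1480, a log2 fold change of 0.09 ± 0.05 (edgeR adjusted p = 0.162). Irf8 was at 360, 336, 330 and 332 CPM in PFF + VH and at 404, 379, 387, 355 and 371 CPM in PFF + AZD1480, a log2 fold change of 0.11 ± 0.05 (edgeR adjusted p = 0.134). Neither passed the threshold, in the fit given here or in an alternative.

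Other measures moved with the libraries. The median depth of MG per hashtag was 2676 to 3278 UMIs in PFF + VH and 6367 to 7189 UMIs in PFF + AZD1480. Gm42418, which overlaps ribosomal RNA sequence, was at 11175 to 11847 and 8297 to 8585 CPM, and Malat1 at 18823 to 20137 and 18107 to 19430 CPM. The summed T/NK marker list in MG was at 15.6 CPM (PFF + VH) and 5.74 CPM (PFF + AZD1480), with all 10 genes present in the first and 9 in the second, and none of its genes passed the filter in both groups. In the same order the monocyte list was at 15.2 and 7.65 CPM, the neutrophil list at 78.5 and 64.3, the dendritic cell list at 8.22 and 6.60, the BAM list at 81.6 and 83.3 and the B cell list at 158 and 152 CPM, with all genes of these lists present. Of their genes that passed in both groups, 1 of the monocyte list and 1 of the BAM list were lower in PFF + AZD1480 and 1 of the neutrophil list was higher. The MG marker list had 0 of 6 genes called by edgeR, and its median log2 fold change was -0.02. The part of depth and of background RNA in the result was not tested. With all cells thinned to 1000 UMIs, Smad3, Mef2c and Mef2a remained called, and Sall1 (log2 fold change 0.13, edgeR adjusted p = 0.238), Maf (0.15, edgeR adjusted p = 0.103) and Runx1 (0.13, edgeR adjusted p = 0.161) did not.

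The mix of MG states also differed. Among MG with at least 1000 UMIs, 6.52 to 10.5% per hashtag were in the disease-associated state in PFF + VH and 4.10 to 7.31% in PFF + AZD1480. For the interferon state, which is described further on, the shares were 1.48 to 2.19% against 0.135 to 0.786%. The part of the interferon state in the result was not tested. In an alternative, MG with any of the 9 genes that define the disease-associated state were left out. All MG under 1000 UMIs, which were given no state, were left out with them. In the whole libraries, 4224 of 31704 MG of PFF + VH and 283 of 11903 MG of PFF + AZD1480 were under 1000 UMIs. The log2 fold changes were then 0.13 for Sall1 (edgeR adjusted p = 0.055), 0.14 for Maf (edgeR adjusted p = 0.083) and 0.15 for Runx1 (edgeR adjusted p = 0.066), and these calls were lost. Smad3, Mef2c and Mef2a kept theirs. The parts of state and depth in the lost calls were not tested.

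Of 12 TGF-β pathway genes that passed the filter in both groups, 5 were higher in MG of PFF + AZD1480 and none was lower. They were Itgav (log2 fold change 0.42), an integrin that releases TGF-β from its latent form, the ubiquitin ligase genes Smurf1 (0.27) and Smurf2 (0.23), Tgif1 (0.25), which encodes a repressor of SMAD activity, and Tgfbr2 (0.17). The median log2 fold change of the 12 was 0.16 and that of all genes that passed in both groups 0.0015. Of 13 tested paralogs and partners, Mef2d (0.34), Mafg (0.22) and Smad2 (0.20) were higher. Of the 12 further microglial genes, Cx3cr1 (0.22) was higher and Bhlhe41 (-0.41), Tyrobp (-0.34) and Olfml3 (-0.24) were lower. Nr4a1 (0.69), Cebpa (0.37) and Cebpb (0.35) were higher among 5 tested lineage factors of other cells. All 6 interferon-induced genes of a fixed list that passed in both groups were lower, with a median of -1.98.

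In BAM, none of the 6 tested members was called between PFF + AZD1480 and PFF + VH, where 1.06% of 2926 genes were called. None had an unadjusted p under 0.05 with edgeR, and DESeq2 called none. Sall1 and Smad3 did not pass the filter on low counts in this class. Mef2a was at 665, 747, 845 and 705 CPM in PFF + VH and at 697, 568, 419, 627 and 542 CPM in PFF + AZD1480, a log2 fold change of -0.32 ± 0.18 (edgeR adjusted p = 0.552). Runx1 was at 626, 898, 441 and 625 CPM against 692, 1098, 419, 852 and 883 CPM, a log2 fold change of 0.32 ± 0.22 (edgeR adjusted p = 0.660). The groups overlapped for both genes, and with 10 to 76 BAM per hashtag the standard errors were 0.18 to 0.23, several times those in MG. Changes of the size seen in MG may have been missed in BAM, and a limit of detection for them was not tested. Whether the treatment difference itself differed between MG and BAM was not tested.

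MG were next divided by state. Disease-associated MG are a state with high lipid-handling and lysosomal genes, in which homeostatic genes are known to be low. After thinning to 1000 UMIs, MG with UMIs of at least 2 of 9 disease-associated genes (among them Cst7, Itgax, Lpl, Spp1 and Axl, none of them a member) were compared with MG that had none of the 9 in the same hashtag. PBS had 168 cells in this state, Monomer 89, PFF + VH 1984 and PFF + AZD1480 676.

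Maf, Sall1, Mef2a, Smad3 and Mef2c were lower in the disease-associated state and Spi1, Irf8 and Runx1 were not called. These were 5 of 8 members, where 44.4% of 11107 genes were called and 22.1% were lower. All 8 passed the filter on low counts in both states, and of the 6454 genes that did so 58.2% were called, 27.6% as lower. For 4 of the 8 members, all among the 5 called, the states did not overlap, against 15.2% of all genes and 23.1% of those that passed in both states. Each of the 5 was lower in 9 of 9 hashtags and kept its call in all 22 alternatives computed. Malat1 and Gm42418 also had lower mean CPM in this state. Malat1 was at 16795 against 19793 CPM in PFF + VH and 13549 against 19221 CPM in PFF + AZD1480. Gm42418 was at 10302 against 11495 and 8015 against 8472 CPM. What these shifts share with the lower members was not tested.

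**Figure D4:**
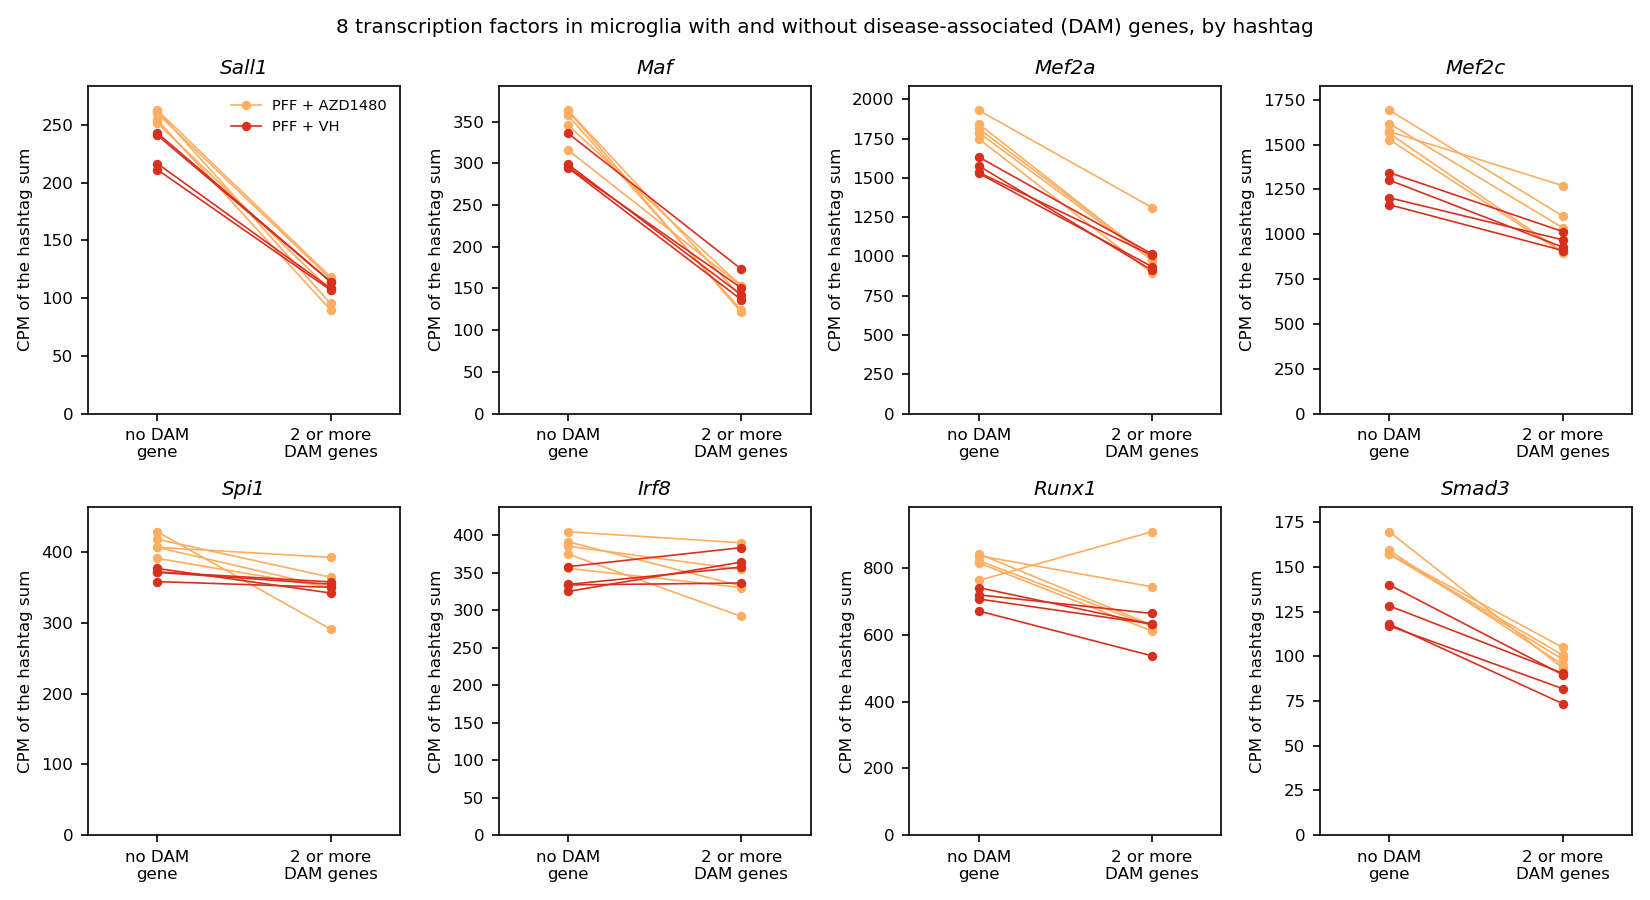
CPM of each transcription factor (y axis, linear, from 0) in microglia without any of the 9 disease-associated (DAM) genes and in microglia with 2 or more of them, with 1 line per hashtag and the colour giving the library. Lines fall in all 9 hashtags for Sall1, Maf, Mef2a, Mef2c and Smad3, and for Irf8 in CPM, before edgeR's scaling, they rise in the 4 PFF + VH hashtags and fall in the 5 PFF + AZD1480 hashtags.

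Maf had a lowest value of 121, a median of 142 and a highest value of 173 CPM in the disease-associated state, against 295, 336 and 364 CPM in the other MG. Its log2 fold change was -1.07 ± 0.07 (edgeR adjusted p = 1.5e-13). Sall1 had 89.7, 108 and 118 CPM against 211, 252 and 263 CPM, a log2 fold change of -1.04 ± 0.07 (edgeR adjusted p = 8.6e-14). The states were far apart for both genes, with no value between 118 and 211 CPM for Sall1.

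Mef2a had 893, 977 and 1311 CPM against 1529, 1749 and 1930 CPM, a log2 fold change of -0.65 ± 0.06 (edgeR adjusted p = 1.2e-10). Smad3 had 73.5, 93.4 and 105 CPM against 117, 157 and 170 CPM, a log2 fold change of -0.52 ± 0.07 (edgeR adjusted p = 9.6e-08). Mef2c had 896, 969 and 1271 CPM against 1164, 1528 and 1691 CPM, a log2 fold change of -0.39 ± 0.06 (edgeR adjusted p = 4.0e-06). Mef2c was the one member of the 5 whose states overlapped.

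The factors of the general myeloid program stayed closer to the other MG. Spi1 had 291, 351 and 393 CPM against 359, 392 and 429 CPM. It was lower in 9 of 9 hashtags in CPM but had a log2 fold change of -0.02 ± 0.06 after edgeR's scaling (edgeR adjusted p = 0.807). Runx1 had 538, 633 and 910 CPM against 672, 764 and 844 CPM, a log2 fold change of -0.09 ± 0.07 (edgeR adjusted p = 0.297). It was called lower in 3 of 22 alternatives, without hashtag 3 of PFF + AZD1480 (log2 fold change -0.17, edgeR adjusted p = 0.0259), with thinned cells (-0.24, edgeR adjusted p = 0.0395) and without a filter on low counts (-0.16, edgeR adjusted p = 0.043). Irf8 had 291, 354 and 390 CPM against 325, 358 and 404 CPM, with a log2 fold change of 0.09 ± 0.06 (edgeR adjusted p = 0.239). Irf8 was called higher with hashtags called by ratio (0.14, edgeR adjusted p = 0.0449) and within PFF + VH alone (0.21, edgeR adjusted p = 0.0186), and within PFF + AZD1480 it was not called (-0.02, edgeR adjusted p = 0.836).

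Each whole library, with its cells without a single hashtag included, gave 1 ratio. The cells of PBS and Monomer were not in the test, and those of the PFF libraries in large part were. Sall1 in the disease-associated state stood at 47.2, 35.5, 53.4 and 44.1% of its level in the other MG, in the order PBS, Monomer, PFF + VH and PFF + AZD1480. Maf stood at 36.6, 38.0, 53.2 and 38.4%, Mef2a at 56.4, 54.7, 63.6 and 55.0%, Smad3 at 59.9, 46.3, 65.1 and 60.9%, and Mef2c at 77.1, 69.6, 75.9 and 66.5%. In each library Sall1 or Maf had the lowest ratio of the 8 and Spi1 (89.2 to 102%), Irf8 (94.6 to 109%) and Runx1 (85.2 to 94.5%) had the highest 3.

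In the same fit, 7 of 11 TGF-β pathway genes, all of which passed the filter in both states, were lower in the disease-associated state, from Smad7 (log2 fold change -0.16) to Ski (-0.52), and Tgif1 (0.41) was higher. The median of the list was -0.26 and that of all genes that passed in both states 0.0037. Of 8 paralogs and partners that passed in both states 4 were lower, among them Sall3 (-0.49), Smad2 (-0.20) and Smad4 (-0.32), which encodes the common partner of the receptor-bound SMADs. Runx2 was higher (0.89). Of the 12 further microglial genes, 9 were lower, with Slc2a5 (-2.29) and Crybb1 (-1.96) the farthest. Tyrobp (1.18) and Trem2 (0.62), which encode a receptor pair, were higher. Of the 6 genes of the MG marker list 4 were lower and 1 was higher, with a median of -0.91. Of the interferon-induced genes Cxcl10 alone passed in both states, and it was higher (1.10). Batf3 (-0.43), Nr4a1 (-0.36) and Cebpa (-0.21) were lower among the 4 lineage factors of other cells that passed in both states.

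The interferon state was set in the same way, by at least 2 of 8 interferon-induced genes such as Isg15, Ifit3 and Rsad2, and was rare, with 70 MG (PBS), 83 (Monomer), 492 (PFF + VH) and 54 (PFF + AZD1480). Only 6 hashtags had 10 or more such cells, 4 of PFF + VH and 2 of PFF + AZD1480. Maf, Mef2a and Mef2c were lower in this state and the other 5 members were not called, where 8.13% of 11706 genes were called and 3.49% were lower. All 8 passed the filter on low counts in both states, and of the 2469 genes that did so 19.8% were called, 9.07% as lower.

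Maf had a lowest value of 154, a median of 226 and a highest value of 270 CPM in the interferon state against 269, 297 and 346 CPM in the other MG, and was lower in 6 of 6 hashtags. Its log2 fold change was -0.48 ± 0.13 (edgeR adjusted p = 0.0030). Without hashtag 4 of PFF + VH, whose 84 interferon-state cells gave the lowest Maf value, the call was lost (log2 fold change -0.40, edgeR adjusted p = 0.0785). Mef2a had 954, 1317 and 1535 CPM against 1440, 1543 and 1692 CPM, a log2 fold change of -0.34 ± 0.09 (edgeR adjusted p = 0.0019), and Mef2c 853, 1012 and 1437 CPM against 1140, 1288 and 1647 CPM, a log2 fold change of -0.33 ± 0.09 (edgeR adjusted p = 0.0034). Both were lower in 5 of 6 hashtags. With DESeq2 none of the 3 was called (adjusted p = 0.051 for Maf, 0.205 for Mef2a and 0.156 for Mef2c), and with RLE scaling Mef2a (edgeR adjusted p = 0.0579) and Mef2c (edgeR adjusted p = 0.0796) were not. Of 19 alternatives, Maf lost its call in 4, Mef2a in 6 and Mef2c in 7. As whole libraries in CPM, Maf in the interferon state stood at 95.3, 96.0, 79.1 and 80.3% of its level in the other MG, in the order PBS, Monomer, PFF + VH and PFF + AZD1480, so that it was close to the other MG in the libraries that were not in the test. Mef2a stood at 74.8, 83.6, 80.9 and 85.1% and Mef2c at 77.8, 77.6, 81.9 and 88.6%, below the other MG in each library.

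Sall1 had 160, 196 and 241 CPM in the interferon state against 194, 225 and 251 CPM in the other MG, lower in 6 of 6 hashtags, with a log2 fold change of -0.18 ± 0.13 (edgeR adjusted p = 0.521). Irf8 had 318, 394 and 445 CPM against 328, 344 and 382 CPM, higher in 4 of 6 hashtags, with a log2 fold change of 0.19 ± 0.11 (edgeR adjusted p = 0.396). As whole libraries, the interferon-state MG stood at 140, 138, 117 and 106% of the Irf8 level of the other MG, in the same order of libraries. Irf8 was thus above the other MG in each whole library, 1 value per library that allows no test, but below them in hashtag 1 of PFF + VH and hashtag 2 of PFF + AZD1480. Spi1, Runx1 and Smad3 differed by log2 fold changes of -0.21, 0.02 and -0.23 (edgeR adjusted p = 0.341, 0.945 and 0.481).

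Of 9 further microglial genes that passed the filter in both states, 6 were lower in the interferon state, among them Gpr34 (-0.66) and Cx3cr1 (-0.48), and none was higher. Of the 6 genes of the MG marker list 5 were lower, with a median of -0.34. All 4 disease-associated genes that passed in both states, Axl (1.89), Cst7 (1.06), Lpl (0.97) and Spp1 (0.36), were higher, with a median of 1.02, and the part of the disease-associated state in the lower Maf, Mef2a and Mef2c was not tested. Of 10 such TGF-β pathway genes 3 were lower, Itgav (-0.48), Smurf2 (-0.47) and Tgfbr1 (-0.29). Of 6 such paralogs and partners 1 was lower, and none of 3 lineage factors of other cells was called.

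For each member, the genes with the most similar level across the 21 combinations of library and class with at least 20 cells were listed, by Pearson's r of log2(CPM + 1) among 10345 genes outside the class markers. The points share libraries, so r is a description. Sall1 was followed most closely by Nav3 (r = 0.968), Gpr84 (0.952) and Csmd3 (0.948), and Mef2a by Srgap2 (0.967), Skil (0.964), a repressor gene of SMAD activity, and the fractalkine receptor gene Cx3cr1 (0.956). Maf had P2rx7 (0.939), Slc9a9 (0.932) and Prune2 (0.932). Spi1 had Cd300a (0.943) and Alox5ap (0.936). Mef2c had Vav2 (0.926), Cd83 (0.921) and Cd180 (0.918), the latter 2 known from B cells and dendritic cells. Runx1 had Pbx3 (0.903), Ppp1r21 (0.893) and Tm9sf2 (0.885), and Smad3 had Ctif (0.877) and Nptn (0.865). Irf8 had the weakest neighbours, Trit1 (0.871), Unk (0.852) and Usp6nl (0.851).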

How the data were processed

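The 8 genes and the gene lists were chosen with earlier results of these data known. Per the labels, 3′ gene expression and hashtag libraries were made with the 10x Chromium chemistry, and the deposited values are raw UMI counts per gene and cell from Cell Ranger (version 7.0.1 in the file headers, build mm10). Whether intronic reads were counted was not given in the sources used here. From these counts, cells with 500 to 15000 counts, 250 to 5000 genes and a mitochondrial share of no more than 10% were used. Hashtags were called with Seurat 5.3.0 (HTODemux, quantile 0.99), and cells with several or no hashtags were left out of tests; no doublet caller was used in the results reported. Classes needed at least 3 marker UMIs from at least 2 genes of their list and, for MG, 5 times the UMIs of any other list; other classes needed more than every other list. This scoring rule was set after the data were seen. Sums of at least 10 cells per hashtag and class were tested with edgeR 4.0.16 in R 4.3.3 (TMM scaling, filterByExpr, quasi-likelihood, Benjamini-Hochberg over all genes, threshold 0.05), with the hashtag as a block between classes and states and treatment alone between libraries. Whether a gene passed filterByExpr in each class or state alone was checked with the same rule. All tests were two-sided. They were also run on simulated counts with no hashtag effect and with only a small set of genes changed. That setting is simpler than the data, its outcome is not reported here, and no result rests on it. In the log2 fold changes the error is the standard error. Poisson and binomial intervals (95%) cover counting error only. Gene coordinates are from GENCODE and promoters from RefSeq. Named genes were the 8 members, list genes past the threshold or at the ends of their list, and the 3 nearest genes by Pearson's r. A few of these genes are not reported here. Between treatments, the deviations of hashtags with the same number correlated at -0.031 to 0.078. These values showed no pairing by number but cannot exclude it, and the sources do not say which pool each hashtag marked. Alternatives changed the scaling, tool, filter, hashtag call, class rule, depth, counts per cell, block and hashtags used.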

Additional observations from a re-analysis of the deposited data

Results flagged for a closer look

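Among 96 groups of 4 or 5 hashtags, 7 had 1 hashtag far from the others, and chance gives about 5% of groups. Smad3 in hashtag 1 of PFF + AZD1480 was high in all MG (165 CPM, nearest 153), in MG without disease-associated genes (170 CPM, nearest 159) and in MG without interferon-induced genes (168 CPM, nearest 155), sets that share most of their cells. In hashtag 1 of PFF + VH, Maf was at 336 CPM in MG without disease-associated genes (nearest 299) and Irf8 at 359 CPM in MG without interferon-induced genes (nearest 333). Maf was low in the 84 interferon-state MG of hashtag 4 of PFF + VH (154 CPM, nearest 219), and Mef2a was high in the 47 disease-associated MG of hashtag 5 of PFF + AZD1480 (1311 CPM, nearest 984).

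In CPM, Irf8 moved in opposite directions in the PFF libraries: disease-associated MG had more than the other MG in all 4 hashtags of PFF + VH (mean difference 22.6 CPM) and less in all 5 of PFF + AZD1480 (-42.7 CPM), with a mean over all 9 of -13.7 CPM. After edgeR's scaling the log2 fold change was 0.21 within PFF + VH (edgeR adjusted p = 0.0186) and -0.02 within PFF + AZD1480 (edgeR adjusted p = 0.836), so that the fall in the second was not kept, and Spi1, lower in CPM in 9 of 9 hashtags, had -0.02 over both libraries. This difference between the libraries was not tested.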

How the results depend on the processing

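Of 951 refits of a member under an alternative, 867 kept the direction and the side of the threshold, 54 lost a call, 5 gained one and 25 changed sign, and 215 of 224 class levels moved by less than the spread between libraries. Thinning cells to 1000 UMIs lowered the count of called genes for MG against BAM (1352 from 2899), MG against T/NK (2734 from 4769), AZD1480 in MG (1687 from 3588), the disease-associated state (2261 from 4928) and the interferon state (184 from 952). Thinning leaves fewer counts by construction and drops cells under 1000 UMIs. The part of either in the lower number of calls was not tested. Hashtags of 1 library gave 1828 (MG against BAM, PFF + VH), 3017 (MG against T/NK, PFF + AZD1480) and 140 genes (interferon state, PFF + AZD1480). DESeq2 called 563 genes in the interferon state, and the share of higher calls there was 57.0% with TMM and 73.1% with RLE scaling. In BAM under AZD1480 (31 genes), no filter gave 72, the stricter class rule 1, thinning 1 and leaving out 1 hashtag 15 to 29, with 71.0% of calls higher by edgeR and 58.3% by DESeq2. Leaving out 1 hashtag gave 2557 to 2893, 4180 to 4521, 2847 to 3269, 4565 to 4878 and 670 to 894 genes in the other 5 comparisons, in the order of the report. The hashtag numbers showed no sign of pairing samples, which is not excluded. With them as a replicate block, AZD1480 called 3138 genes in MG and 31 in BAM, and Sall1 (adjusted p = 0.0526) and Runx1 (adjusted p = 0.0728) lost their calls; without the hashtag block between classes or states 3146, 5070, 4896 and 798 genes were called.

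The sign changes concerned members that were not called in the fit reported. They were, as log2 fold changes, Spi1 in MG against BAM (DESeq2, -0.0025), Maf (-0.022) and Mef2a (0.021) in BAM with thinned cells, Mef2c in BAM with the block (-0.060) and without 1 hashtag (-0.11 to 0.20), Spi1 in BAM with hashtags called by ratio (-0.014) and without 1 hashtag (-0.14 to 0.16), and Irf8 in BAM without 1 hashtag (-0.18 to 0.0096). In the disease-associated state they were Spi1 with hashtags called by ratio (0.017), with PFF + VH alone (0.047) and without 1 hashtag (-0.054 to 0.012), and Irf8 with PFF + AZD1480 alone (-0.025). In the interferon state they were Runx1 without filter (-0.041), by ratio (-0.0026), thinned (-0.16), with PFF + AZD1480 alone (-0.033) and without 1 hashtag (-0.12 to 0.11), Irf8 (-0.018) and Smad3 (0.12) with PFF + AZD1480 alone. The cause was not tested. Scrublet's automatic threshold marked almost no cells, so the planned run with it could not be used. Leaving out the highest 10% of its scores, fits within 1 library, PFF cells with a single hashtag and MG without disease-associated genes were alternatives chosen after seeing the data. Depth limits the classes other than MG, and 1 library per group limits every treatment comparison.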
